A study of Homo sapiens with 9 samples.

Results

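The sites examined were the peaks of 2 chromatin immunoprecipitation sequencing (ChIP-seq) libraries from XMU-MP-1 treated 786-O cells, one for p65 and one for TEAD. The p65 list held 1649 peaks and the TEAD list 23459 after 1 mitochondrial TEAD peak was left out, together 25108 of the 60343 peaks of the series. A p65 peak and a TEAD peak with at least 1 bp in common were called shared, and all other peaks p65-only or TEAD-only. This gave 1240 shared and 409 p65-only p65 peaks, and 1234 shared and 22225 TEAD-only TEAD peaks.

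The established line 786-O derives from a human clear cell renal carcinoma, and the labels name no engineered allele in any group. The groups used were p65 and TEAD in cells treated with XMU-MP-1, and p65 in vehicle, control and siTEAD4 cells, each with 1 library. The labels give neither a dose nor a time for XMU-MP-1, and do not name the TEAD protein that was precipitated. In the sample titled siTEAD4 the peaks are numbered under another name, p65_Vert, so its list is called "labelled siTEAD4". A TEAD library from cells without XMU-MP-1 was not analysed here. Peak lists hold no expression values, so the labelled cell type could not be checked against marker transcripts.

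p65, the product of RELA, is the subunit of NF-κB that carries its strong activation domain. It is held in the cytoplasm by IκB proteins until inflammatory signals release it, and it binds κB sites at genes for cytokines, survival factors and its own inhibitors. TEAD proteins bind the MCAT motif and recruit YAP and TAZ, and in many cells they occupy enhancers together with AP-1 factors. MST1 and MST2, the kinases that XMU-MP-1 inhibits, act through LATS1 and LATS2 to keep YAP out of the nucleus. The comparison asks at which places in the genome p65 and TEAD were found together in cells with these kinases inhibited, and at which places only 1 of them was found.

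Promoters of 6 genes show the letters found at starts of the different classes. They were chosen after their values were seen: 3 with a shared peak at the start, 1 with p65 alone and 2 with TEAD alone. Each line gives the 250 bases before the start on the gene's own strand, from RefSeq (GRCh38.p14). Capitals mark matches on either strand to the TEAD motif GGAATG, the AP-1 motif TGANTCA, the κB motif GGANTTTCC and the general κB consensus.
CXCL8: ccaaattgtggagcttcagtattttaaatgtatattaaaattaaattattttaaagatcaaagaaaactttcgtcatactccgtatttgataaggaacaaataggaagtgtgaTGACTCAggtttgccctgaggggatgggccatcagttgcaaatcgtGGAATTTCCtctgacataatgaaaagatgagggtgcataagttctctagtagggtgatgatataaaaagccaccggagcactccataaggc
TNFAIP3: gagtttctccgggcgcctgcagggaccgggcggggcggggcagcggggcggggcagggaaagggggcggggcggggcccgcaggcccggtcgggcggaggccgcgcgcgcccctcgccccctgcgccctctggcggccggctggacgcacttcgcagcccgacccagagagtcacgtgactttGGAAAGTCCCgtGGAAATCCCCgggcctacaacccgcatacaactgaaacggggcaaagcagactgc
BIRC3: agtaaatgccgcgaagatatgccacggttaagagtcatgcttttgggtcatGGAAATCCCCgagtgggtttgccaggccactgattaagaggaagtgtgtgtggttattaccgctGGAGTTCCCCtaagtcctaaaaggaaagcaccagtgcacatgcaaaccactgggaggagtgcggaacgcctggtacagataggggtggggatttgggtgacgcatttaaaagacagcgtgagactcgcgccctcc
ICAM1: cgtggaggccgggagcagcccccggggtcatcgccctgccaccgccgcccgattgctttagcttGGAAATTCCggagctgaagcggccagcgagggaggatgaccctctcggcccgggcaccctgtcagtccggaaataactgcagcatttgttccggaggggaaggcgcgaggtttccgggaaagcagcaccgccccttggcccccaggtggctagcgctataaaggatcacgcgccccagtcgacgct
CCN2: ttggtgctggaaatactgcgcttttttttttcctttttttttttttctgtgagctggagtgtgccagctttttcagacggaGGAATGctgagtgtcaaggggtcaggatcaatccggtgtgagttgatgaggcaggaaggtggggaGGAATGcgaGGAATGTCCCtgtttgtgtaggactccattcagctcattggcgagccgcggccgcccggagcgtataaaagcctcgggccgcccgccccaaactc
ANKRD1: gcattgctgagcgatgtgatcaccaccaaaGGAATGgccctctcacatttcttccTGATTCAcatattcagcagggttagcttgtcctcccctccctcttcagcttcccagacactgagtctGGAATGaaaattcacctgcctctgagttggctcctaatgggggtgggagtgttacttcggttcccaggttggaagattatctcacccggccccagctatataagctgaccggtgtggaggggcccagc

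CXCL8, which encodes the chemokine interleukin-8, had a p65 fold of 21.7 and a TEAD fold of 11.9 at its start. Fold here is how far the summit stood above its local background, as the authors deposited it, and is relative to its own library. Its promoter held a GGANTTTCC match 91 bases before the start and an AP-1 match 137 bases before it, and no GGAATG. The p65 folds of this site in the vehicle, control and siTEAD4-labelled lists were 20.7, 14.5 and 8.51. TNFAIP3 encodes A20, a ubiquitin-editing inhibitor of NF-κB, and had a p65 fold of 17.9 and a TEAD fold of 4.29. The other p65 folds there were 37.3, 27.7 and 14.2 in the same order. Its κB consensus matches began 67 and 55 bases before the start. BIRC3, the gene of the survival factor cIAP2, had folds of 17.5 for p65 and 8.66 for TEAD, and 37.3, 35.5 and 11.8 in the other p65 lists. Its κB consensus matches began 199 and 135 bases before the start. No GGAATG stood in the 250 bases of any of these 3 genes, each of which had a TEAD peak.

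ICAM1, an adhesion receptor for leukocytes, had p65 alone at its start, with a fold of 6.12, and a GGANTTTCC match 186 bases before it. CCN2 encodes connective tissue growth factor, a classical YAP target, and had TEAD alone with a fold of 40.8. It carried GGAATG at 169, 104 and 95 bases before the start, the last of which overlaps a match to the κB consensus. ANKRD1, another YAP target, had TEAD alone with a fold of 46.9, GGAATG at 220 and 128 bases and an AP-1 match at 195 bases before the start. Of 27305 RefSeq promoters of the same length, 11.9% held GGAATG, 6.60% TGANTCA, 5.05% the κB consensus and 1.47% GGANTTTCC. These matches describe letters in this window only and do not show where a protein was bound.

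Most p65 peaks had TEAD and few TEAD peaks had p65. The shares were 75.2% of p65 peaks (95% Wilson interval 73.1 to 77.2) and 5.26% of TEAD peaks (4.98 to 5.55). These and all other intervals cover the counting of peaks only, treat peaks as independent and say nothing of replicate error, because each library stands alone. For the same reason no p-value is given. Almost all pairs were 1 to 1: of 1244 overlapping pairs, 4 p65 peaks met 2 TEAD peaks and 10 TEAD peaks met 2 p65 peaks. Over the 22 chromosomes with at least 20 p65 peaks, the shared fraction of p65 peaks ran from 66.7% on chromosome X to 86.5% on chromosome 8. The intervals of those extremes, 45.4 to 82.8 and 76.9 to 92.5, overlapped.

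Median fold separated the 2 TEAD classes but not the 2 p65 classes. Shared TEAD peaks had a median TEAD fold of 10.1 (9.61 to 10.6), and TEAD-only peaks one of 6.23 (6.18 to 6.25). Across quintiles of TEAD fold, from the weakest to the strongest, p65 was called at 2.22%, 2.32%, 3.31%, 5.92% and 12.6% of peaks. The p65 fold was 5.89 (5.73 to 6.07) at shared and 6.12 (5.91 to 6.34) at p65-only sites, with overlapping intervals. Across quintiles of p65 fold, TEAD was called at 82.8%, 73.8%, 69.2%, 72.3% and 77.7% of peaks, so both ends lay above the middle. The intervals of the weakest (78.4 to 86.5) and the middle quintile (64.0 to 74.0) did not overlap. Within shared pairs Spearman's rho between the folds of both factors was -0.011 over 1244 pairs, all from the same 2 libraries.

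Shared sites were also longer, most clearly on the TEAD side. Median lengths were 557 bp (539 to 584) for shared TEAD peaks, 343 bp (340 to 345) for TEAD-only, 344 bp (334 to 352) for shared p65 and 311 bp (299 to 321) for p65-only peaks. Length rises with fold, and a longer peak meets the 1 bp rule more easily. In the strongest quintile of TEAD fold shared peaks measured 717.5 bp and TEAD-only peaks 516 bp, and in the weakest 292 and 274 bp. In the strongest quintile of p65 fold the lengths were 484 bp for shared and 394 bp for p65-only peaks, and in the weakest 283 and 275 bp. In both weakest quintiles the intervals overlapped. When a shared site was instead defined by summits within 200 bp, shared TEAD peaks still measured 536 bp and the others 344 bp. The p65 lengths were then 340.5 bp (332 to 349) for shared and 321 bp (309 to 336) for p65-only peaks, with overlapping intervals.

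In a typical pair the p65 peak sat inside a longer TEAD peak. The TEAD peak was the longer one in 80.4% of pairs (78.1 to 82.5), with a median length ratio of 1.54, and 60.0% of pairs had the p65 peak wholly inside. The p65 summit fell within the TEAD peak in 96.3% of pairs and the TEAD summit within the p65 peak in 87.3%. In 14 of 1244 pairs neither summit lay in the other peak. Summits were a median of 57 bp apart (52 to 62, quartiles 24 and 113), with 12.3% within 10 bp, 26.3% within 25 bp and 87.6% within 200 bp. In 12 pairs the summit was the same base. The farthest shared summits were 1690 bp apart, and the closest p65-only summit lay 204 bp from a TEAD summit.

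The p65 summit lay closer to the p65 summit of another library than to the TEAD summit. Of the shared p65 peaks, 1206 also had a vehicle p65 peak. At these, the distance was 36 bp (33 to 38) to the vehicle p65 summit and 56 bp (51 to 60) to the TEAD summit. The vehicle summit was the nearer one at 754 peaks (62.5%), the TEAD summit at 438, and 14 were equal. At 372 p65-only peaks the vehicle summit lay 30 bp away (27 to 34). Pairs in the strongest quintile of p65 fold had summits 43 bp apart (37 to 55), against 60 bp (49 to 71) in the weakest quintile.

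**Figure D1:**
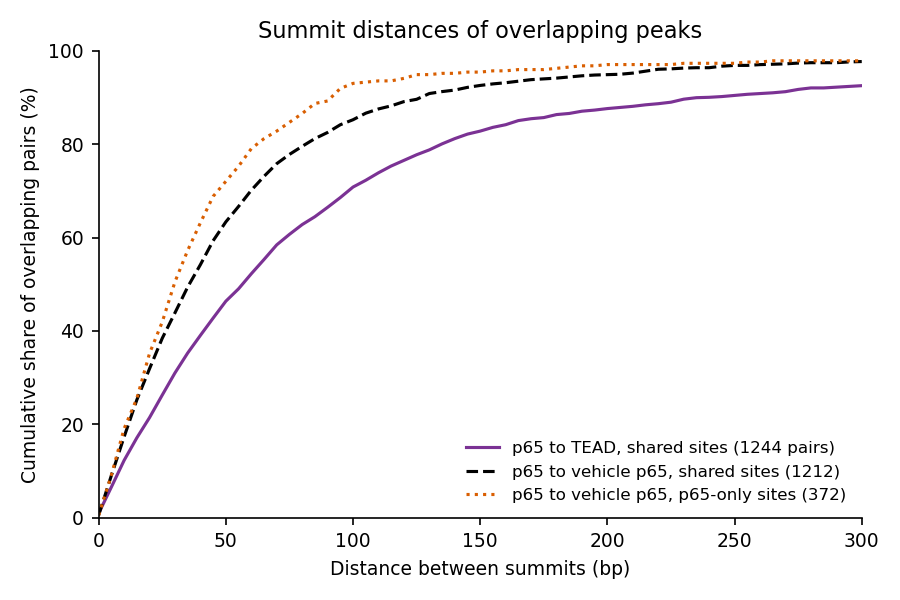
Cumulative share of overlapping peak pairs (y axis, %) by the distance between their summits (x axis, bp), for p65 to TEAD at shared sites and for p65 to vehicle p65 at shared and p65-only sites. The p65 to TEAD line runs lowest: its median is 57 bp, against 36 and 30 bp for the lines to vehicle p65.

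The other p65 libraries were not used to form the classes. A vehicle p65 peak was present at 97.3% of shared p65 peaks and at 91.0% of p65-only peaks, a difference of 6.30 percentage points (Newcombe interval 3.67 to 9.57). A control peak was present at 96.7% and 91.7%, a difference of 5.01 points (2.43 to 8.20). For the list labelled siTEAD4 the shares were 72.6% and 71.4%, and the interval of the difference included 0 (-3.70 to 6.35). In no other p65 list were 27 p65-only peaks (6.60%) and 13 shared p65 peaks (1.05%).

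Sites also called under vehicle had the higher vehicle fold where TEAD was absent. The vehicle fold was 15.1 (14.2 to 16.1) at p65-only and 12.48 (11.97 to 12.92) at shared sites, read within the vehicle list. In the control list the values were 13.7 (12.9 to 14.8) and 11.6 (11.1 to 12.1). In the list labelled siTEAD4 they were 6.33 (5.99 to 6.60) and 5.96 (5.68 to 6.21), with overlapping intervals.

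TEAD-only peaks fell into a group with p65 in another library and a group without. Of the 22225, 31.0% had a vehicle p65 peak, 27.3% a control peak and 1.71% a peak labelled siTEAD4. These shares also depend on the number of peaks and the depth of each list, which was not tested. The siTEAD4-labelled list also held fewer of the shared p65 peaks, 72.6%, than the vehicle list, 97.3%. Over all TEAD peaks, 8070 (34.4%) had p65 in another list only and 14155 (60.3%) had none in any list. Their TEAD folds were 6.85 (6.73 to 6.96) and 5.92 (5.85 to 5.95), and their median lengths 409 and 315 bp. Both groups lay below the 1234 sites with p65 under XMU-MP-1, whose TEAD fold was 10.1.

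**Figure D2:**
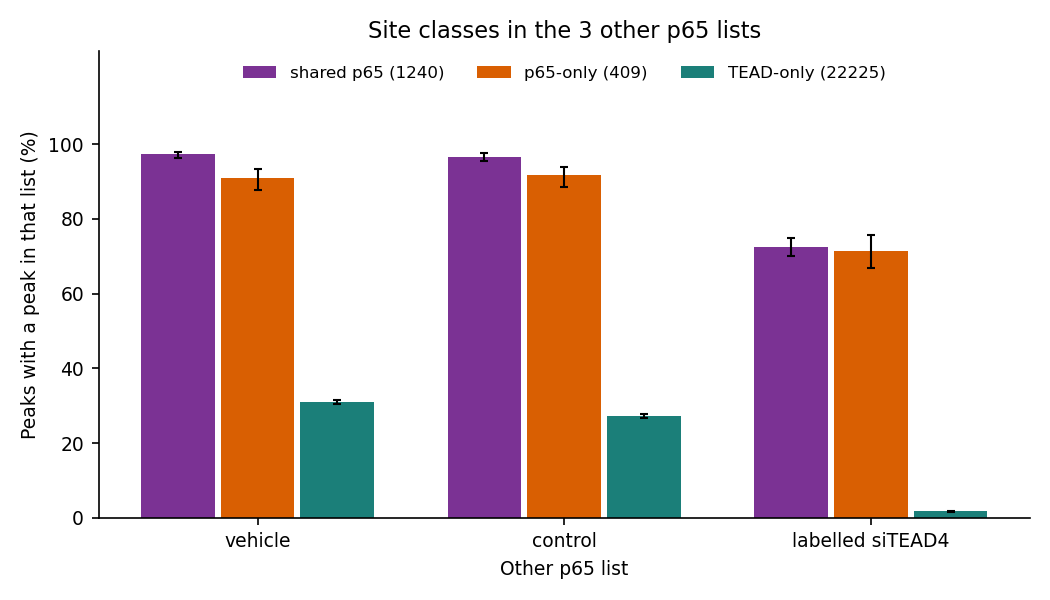
Share of shared p65, p65-only and TEAD-only peaks (y axis, %) that overlap a peak of the vehicle, control and siTEAD4-labelled p65 lists (x axis). Bars are counts of peaks from 1 library each and error bars are 95% Wilson intervals. Both p65 classes stand between 91.0% and 97.3% in the vehicle and control lists, and TEAD-only peaks at 31.0% and 27.3%. TEAD-only peaks were defined by having no p65 peak under XMU-MP-1, so their lower bars follow in part from the definition of the classes.

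By a rule that took the smallest sum of ranks of both folds, 10 shared sites were named. All 10 had a p65 peak in each of the 3 other lists, as did 71.2% of all shared p65 peaks. First came chromosome 9 from 114803908 to 114804642 (hg19, as for all peaks), at SUSD1, with a p65 fold of 16.2, a TEAD fold of 69.1 and summits 27 bp apart. Its other p65 folds were 11.8 in the vehicle, 12.4 in the control and 9.49 in the siTEAD4-labelled list. The next, chromosome 7 from 22612425 to 22613054, lay more than 100 kb upstream of the start of IL6, the gene of interleukin-6. Its folds were 18.6 for p65 and 49.6 for TEAD, with summits 4 bp apart. Between TPM1 and LACTB, chromosome 15 from 63400095 to 63400668 had folds of 13.6 and 75.2, with summits 96 bp apart.

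A pair of the 10 lay near genes of the lists. Chromosome 22 from 30602805 to 30603335, about 40 kb downstream of the start of LIF, had a p65 fold of 12.4 and a TEAD fold of 70.0. LIF encodes leukaemia inhibitory factor, a cytokine of the interleukin-6 family. The p65 folds there were 5.99 in the vehicle, 6.41 in the control and 7.95 in the siTEAD4-labelled list. Chromosome 1 from 86072809 to 86073335, about 27 kb downstream of the start of CCN1, had a p65 fold of 10.7 and a TEAD fold of 64.7. CCN1 encodes CYR61, a matrix protein and YAP target, and the other p65 folds were 8.68, 9.02 and 7.53 in the same order.

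The 10 strongest TEAD-only sites had TEAD folds of 59.6 to 79.6. Of these, 5 had a vehicle p65 peak, 5 a control peak, none a peak labelled siTEAD4 and 4 had none in all 4 p65 lists. Over all TEAD-only peaks 63.7% had none. The one at chromosome 11 from 17732500 to 17733494, near MYOD1, had a TEAD fold of 65.8 and its nearest XMU-MP-1 p65 summit 2004190 bp away. On chromosome 2 from 235904944 to 235905742, within SH3BP4, the TEAD fold was 70.2, with p65 folds of 5.09 in the vehicle and 5.42 in the control list.

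The 10 strongest p65-only sites had p65 folds of 16.3 to 33.0. All 3 other p65 lists held 7 of them, against 69.9% of all p65-only peaks. No other list held the remaining 3, on chromosomes 6, 4 and 1, against 6.60% of all p65-only peaks. The one on chromosome 6 had the highest fold of all p65-only peaks, 33.0. The strongest of the 7, chromosome 5 from 114786263 to 114786774, had folds of 23.8 under XMU-MP-1, 28.0 in the vehicle, 39.3 in the control and 14.7 in the siTEAD4-labelled list. The nearest TEAD summit was 10845 bp away. On chromosome 10 from 81091353 to 81091880, between ZMIZ1 and PPIF, p65 had a fold of 20.3 and TEAD stood 1743 bp away.

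TEAD peaks near each other were more often shared. Neighbouring TEAD peaks were joined across gaps of up to a fixed length between 12 and 13 kb, which gave 15838 regions, of which 11405 (72.0%) held a single peak and 337 held 5 or more. The share of TEAD peaks with p65 was 3.35% (3.03 to 3.70) for single peaks, 6.19% (5.73 to 6.68) in regions of 2 to 4, 9.66% (8.39 to 11.1) in regions of 5 to 9 and 18.4% (14.7 to 22.8) in regions of 10 or more. Put the other way, 19.4% of shared and 8.66% of TEAD-only peaks lay in regions of 5 or more. In the strongest quintile of TEAD fold, 23.5% of shared peaks (20.2 to 27.1) and 11.5% of TEAD-only peaks (10.56 to 12.51) did so. The weakest quintile had 12.4% (7.38 to 20.04) of shared and 8.46% (7.70 to 9.30) of TEAD-only peaks there. The intervals overlapped in the 2 weakest quintiles only.

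Within a region the shared peaks were the taller ones. In 645 regions with both kinds, the mean log2 TEAD fold of the shared peaks exceeded that of the TEAD-only peaks by a median of 0.71 (0.61 to 0.76), and it was the higher in 486 regions (75.3%). A p65 peak was present in 143 of the 337 regions of 5 or more (42.4%, 37.3 to 47.8).

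**Figure D3:**
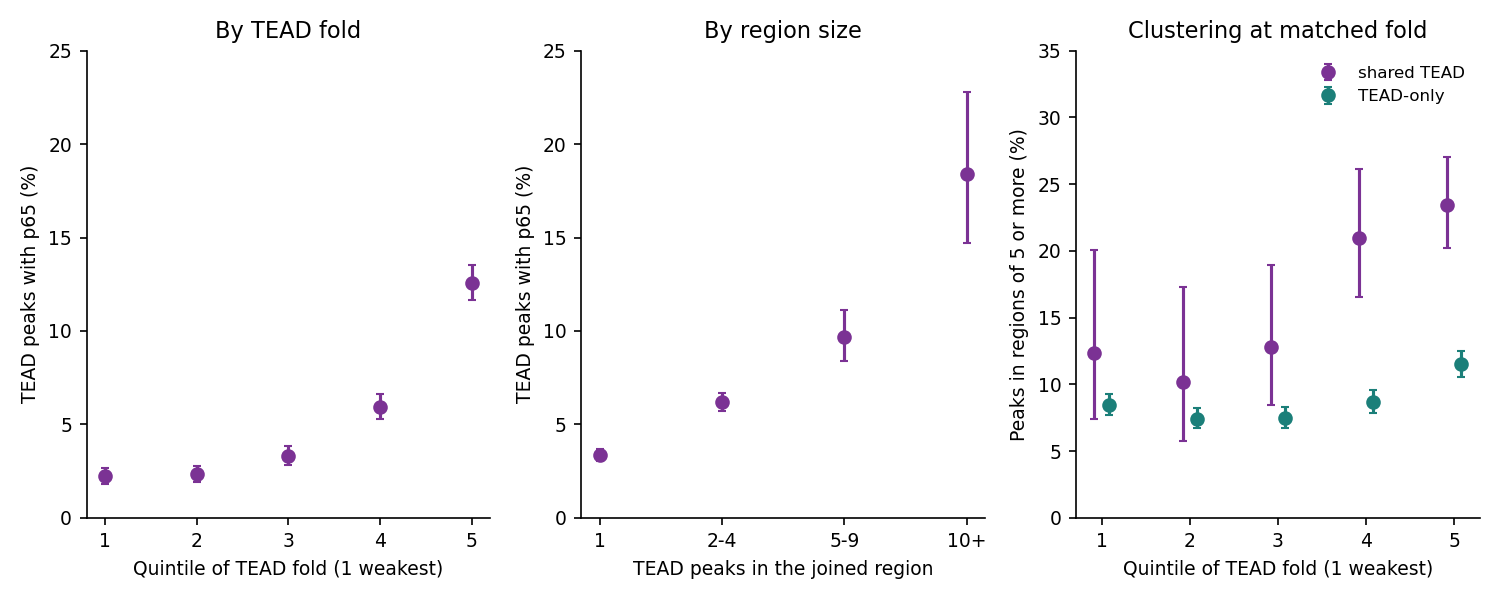
Left and middle, share of TEAD peaks with a p65 peak (y axis, %) by quintile of TEAD fold and by the number of TEAD peaks in the joined region. Right, share of shared and TEAD-only peaks in regions of 5 or more TEAD peaks, by quintile of TEAD fold. Points are counts from 1 library with 95% Wilson intervals. The share with p65 reaches 12.6% in the strongest quintile and 18.4% in regions of 10 or more.

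The regions with the most shared sites are given first. The positions of genes relative to peaks here and below come from general knowledge of hg19. On chromosome 15 from 67397578 to 67443136, in SMAD3, a mediator of TGF-β signalling, 15 TEAD peaks met 7 p65 peaks, with 6 shared TEAD peaks and 1 p65-only peak. The strongest pair there had a TEAD fold of 22.1 and a p65 fold of 12.4. The TNIP1 region, on chromosome 5 from 150439504 to 150474389, held 12 TEAD peaks, 6 of them shared, and 8 p65 peaks, 3 of them p65-only. TNIP1 encodes an A20-binding inhibitor of NF-κB. At its start a single p65 peak of 1362 bp, with a fold of 13.8, spanned TEAD peaks with folds of 10.8 and 7.15.

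Of the other regions led by shared sites, those at SUSD1 and FOSL1 had 5 each and no p65-only peak. Around SUSD1 the highest folds were 69.1 for TEAD and 16.2 for p65 (chromosome 9 from 114774366 to 114836972). The region of FOSL1, which encodes the AP-1 subunit FRA1, had 11 TEAD peaks with folds up to 22.6 and p65 folds up to 11.5 (chromosome 11 from 65648539 to 65686882). Regions with as many TEAD peaks did not all hold many p65 peaks. The HOXA region on chromosome 7 from 27135540 to 27219562 had 16 TEAD and 2 p65 peaks, and 11 p65 peaks under vehicle. Counts of p65 peaks also depend on the size and depth of each list. A cluster of transfer RNA genes on chromosome 1 from 161389371 to 161440374 had 16 TEAD peaks and no p65 peak under XMU-MP-1 or vehicle. Some of its TEAD summits recurred at near-even steps, at 27.7, 35.1, 42.4 and 49.8 kb from the region's start. Whether these are copies of a repeat was not tested, so the 16 peaks cannot be taken as separate observations.

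Joined in the same way, the p65 peaks formed 1422 regions, of which 1260 held 1 peak and 31 held 3 or more. With so many fewer peaks, these counts cannot be set against those of TEAD. The nearest TEAD summit lay a median of 12405 bp (10142 to 18179) from p65-only peaks, within 1 kb for 14.4% of them and within 50 kb for 75.8%. TEAD-only peaks were a median of 429622 bp from the nearest p65 summit, in a list with far fewer peaks.

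One region had both factors side by side at a fixed distance. The tandem 5S ribosomal RNA array on chromosome 1 from 228745877 to 228782058 held 17 TEAD and 16 p65 peaks, of which 15 were p65-only and 1 was shared. RefSeq names 17 numbered RNA5S genes on chromosome 1, transcribed by RNA polymerase III. TEAD summits were spaced 2161 to 2318 bp apart (median 2238.5) and p65 summits 671 to 3877 bp (median 2236). Each p65-only summit lay 662 to 777 bp from the nearest TEAD summit. TEAD folds ran from 10.6 to 33.6 and p65 folds from 4.17 to 10.8, and 15 of the 16 p65 peaks were in all 3 other p65 lists. How reads of near-identical repeats were placed is not given in the sources used here, so these peaks cannot be taken as separate observations.

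The array held 15 of the 59 p65-only peaks with TEAD within 1 kb. Without it, 11.2% (8.42 to 14.7) of the 394 other p65-only peaks had TEAD within 1 kb, and the median distance was 14435 bp. It also weighed on how p65-only peaks clustered. In p65 regions of 5 or more lay 4.89% of p65-only and 2.10% of shared p65 peaks, and the array holds 15 of these 20 p65-only peaks. The joined p65 region that includes the array held 16 p65-only peaks, so it reached past the array's bounds, which were set by TEAD peaks. Peaks past those bounds count here as outside the array. Of p65-only peaks, 6.85% lay in p65 regions of 3 or more with the array and 3.05% (1.75 to 5.25) without it, against 7.91% (6.53 to 9.55) of shared p65 peaks.

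**Figure D4:**
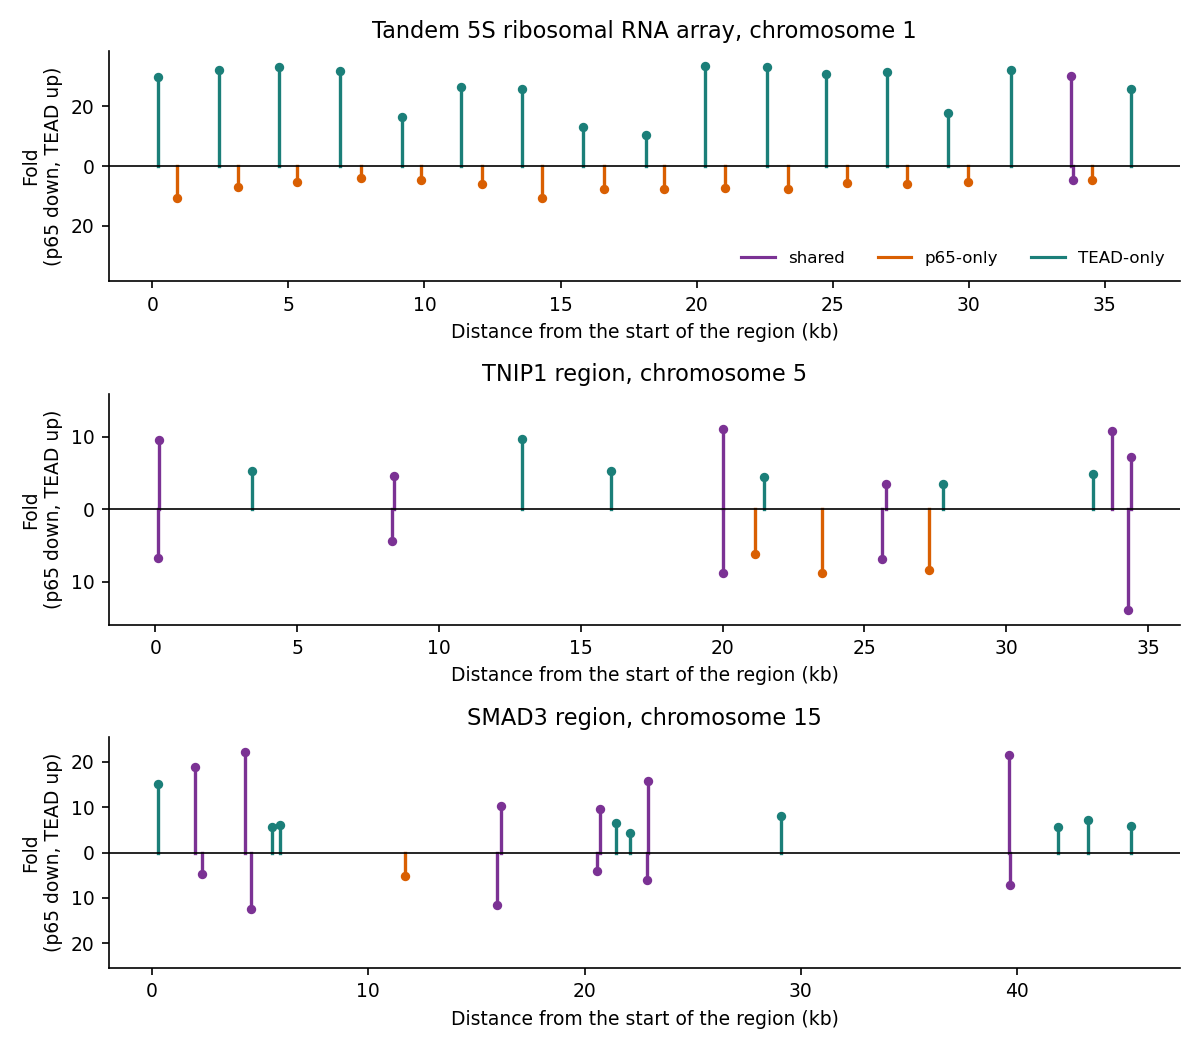
Peaks in 3 joined regions, drawn at the distance of their summit from the start of the region (x axis, kb). Lines upward give the TEAD fold and lines downward the p65 fold (y axis, each relative to its own library), coloured by class. In the 5S array TEAD and p65 peaks alternate up to the last repeats, with TEAD summits a median of 2238.5 bp apart, whereas in the TNIP1 and SMAD3 regions shared peaks stand among TEAD-only peaks.

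Genes were then read by role from 11 lists of 174 genes, with peaks counted within 50 kb of the gene's start. As a background, 35.4% of all 100 kb tiles of the genome held a TEAD peak, 4.2% a p65 peak, 3.2% a shared p65 peak, 1.23% a p65-only peak and 31.5% TEAD without p65. Tiles include gene-poor sequence, so 20 cytosolic ribosomal protein genes served as a second reference. Of these, 17 had TEAD, 4 had p65, 3 had a shared site, 1 a p65-only site and 13 TEAD without p65. Where a gene has several shared sites, the one described is at the gene's start or has the highest p65 fold. Median p65 folds at shared sites differed between whole lists. They were 5.89 under XMU-MP-1, and 12.48 in the vehicle and 11.6 in the control list at sites also called there. A lower fold under XMU-MP-1 than in those lists is thus not by itself particular to a gene.

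Genes of NF-κB itself had p65 at their starts, alone or with TEAD. Of the 5 subunit genes, 3 had a shared site and 1 a p65-only site, and 4 had a TEAD peak. A peak at a start means a summit within 1 kb of it, which 0.105% of 2 kb tiles had for p65 and 1.45% for TEAD. The ribosomal protein genes had TEAD at 9 of 20 starts and p65 at 0. The subunit genes had TEAD at 3 of 5 starts and p65 at 4. NFKB2, the gene of p100, had a p65 fold of 14.2 and a TEAD fold of 3.80 at its start. Its p65 folds in the vehicle, control and siTEAD4-labelled lists were 29.6, 44.1 and 23.3, each relative to its own library. NFKB1, which encodes p105, had 7.69 for p65 and 5.29 for TEAD, and REL 5.23 and 6.05. RELB had p65 alone, with a fold of 6.45. RELA had no p65 peak within 50 kb and 1 TEAD peak, with a fold of 4.86.

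Among 12 genes of feedback inhibitors, 6 had a shared site, 2 a p65-only site and 11 a TEAD peak. NFKBIA, which encodes IκBα, had the highest p65 fold of the list at its start, 38.2, with a TEAD fold of 11.7 and p65 folds of 44.3, 35.5 and 34.2 in the vehicle, control and siTEAD4-labelled lists. It had 3 shared sites and 9 TEAD peaks within 50 kb. BCL3, an atypical IκB protein, had a shared site about 5 kb downstream of its start with folds of 8.03 for p65 and 8.58 for TEAD. CYLD, a deubiquitinase that restrains NF-κB, had p65 alone at its start, with a fold of 8.34, and no TEAD peak within 50 kb.

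Other inhibitors had TEAD without p65. NFKBIZ, which encodes IκBζ, had a TEAD fold of 42.9 about 6 kb upstream of its start and no peak in any p65 list at that site. ZFP36 encodes tristetraprolin, which destabilises cytokine mRNA, and its TEAD fold was 21.4 about 6 kb downstream. The p65 fold at that site was 4.90 in the vehicle list, and the other p65 lists held no peak.

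Of 19 cytokine and chemokine genes, 12 had a shared site, none a p65-only site, 6 TEAD without p65 and 1, CCL5, neither. Within 50 kb of LIF lay 8 shared p65 peaks among 15 TEAD peaks. Near CSF2, the gene of GM-CSF, a shared site about 21 kb downstream had a p65 fold of 11.8 and a TEAD fold of 31.0, and 4 shared sites lay in the window. At the CSF2 start itself there was TEAD alone, with a fold of 12.1. CXCL1 had both at its start, 4.95 for p65 and 4.14 for TEAD, and IL32 had 5.71 and 4.96. CXCL2 had both about 10 kb upstream, with 4.17 for p65 and 18.99 for TEAD. At its start it had TEAD alone, 3.43, where the vehicle and control lists gave p65 folds of 11.1 and 7.81.

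IL6 had no p65 peak within 50 kb and 5 TEAD peaks, of which the highest fold was 13.6. The named shared site upstream of IL6 lies outside that window, more than 100 kb from the start. IL1A and IL1B, which encode both forms of interleukin-1, share a site on chromosome 2 from 113569495 to 113569886, with folds of 11.996 for p65 and 10.96 for TEAD. At TNF a shared site about 3 kb downstream of the start had folds of 9.11 and 4.53. Its vehicle and control p65 folds were 30.2 and 21.2, each relative to its own library.

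Among 16 survival, adhesion and enzyme genes, 10 had a shared site, 4 a p65-only site and 14 a TEAD peak. SOD2, the mitochondrial superoxide dismutase, had a shared site about 9 kb upstream with folds of 10.7 for p65 and 10.8 for TEAD. It also had a p65-only site about 2 kb downstream of the start, with a fold of 4.64. PLAU, the gene of urokinase, had folds of 6.46 and 12.2 about 2 kb upstream. PTGS2, which encodes cyclooxygenase-2, had p65 alone about 28 kb upstream, with a fold of 5.14, and no TEAD peak within 50 kb. The site at MMP9, a matrix gelatinase, was also p65 alone: its fold of 4.06 stood beside 22.96 in the vehicle and 16.6 in the control list. Medians over p65-only peaks were 6.12 under XMU-MP-1, and 15.1 and 13.7 at those also called in the vehicle and control lists.

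NUAK2 counts in that list and in the next, and LATS2, AMOTL2 and PTPN14 in both the YAP target and the Hippo list. All 22 YAP and TEAD target genes had a TEAD peak within 50 kb, with a median of the strongest fold of 22.2, against 6.78 for the 17 ribosomal protein genes with one. A shared site was present at 5 of the 22, p65-only sites at 3 and TEAD without p65 at 14. The last share, 63.6%, was close to that of the ribosomal protein genes, 65% (13 of 20). AMOTL2, an angiomotin that binds YAP, had TEAD alone at its start with a fold of 26.5. PTPN14, a phosphatase that retains YAP in the cytoplasm, had 39.3, and LATS2 had 20.9. No p65 list held a peak at any of these 3 starts. At the CCN2 start only the vehicle list did, with a fold of 3.68, and at the ANKRD1 start the vehicle and control lists gave 6.40 and 6.87.

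With the exception of TGFB2, p65 peaks under XMU-MP-1 at YAP target genes stood away from the start. CCN1 had TEAD alone at its start, 16.7, and 4 shared sites farther off. At that start the vehicle, control and siTEAD4-labelled lists gave p65 folds of 7.55, 6.26 and 4.22. Among all TEAD-only peaks, 1.56% had p65 in all 3 other lists. GADD45A, a growth arrest gene, had a shared site about 3 kb upstream with folds of 10.2 for p65 and 22.9 for TEAD. Near AXL, a receptor tyrosine kinase, both TEAD peaks in the window were shared. The site with the higher p65 fold had folds of 5.99 and 21.8, and the TEAD fold at the other was 58.9. TGFB2 had p65 alone at its start, 5.35, in no other p65 list, while TEAD reached 35.3 about 34 kb downstream.

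Of 26 Hippo pathway genes, 14 had TEAD without p65, 3 a shared site and 9 neither. The share with TEAD, 17 of 26, lay below that of the ribosomal protein genes. So did the share with TEAD without p65, which was 13 of 20 for the ribosomal protein genes. TEAD stood at 12 of the 26 starts, against 9 of 20 for the ribosomal protein genes. Its fold was 15.9 at the start of TEAD4, 8.82 at TEAD1, 7.93 at YAP1 and 5.92 at WWTR1, which encodes TAZ. None of these starts had p65 under XMU-MP-1. TEAD2, TEAD3, LATS1 and STK3, the gene of MST2, had neither factor within 50 kb. WWC1, which encodes the upstream regulator KIBRA, had 13 TEAD peaks and a shared site about 2 kb upstream with folds of 10.5 for p65 and 10.2 for TEAD.

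All 12 AP-1 family genes had TEAD within 50 kb and 5 had a shared site. MAFF had the highest p65 fold of the list, 24.2, beside a TEAD fold of 18.1 about 17 kb downstream. JUNB had 6.97 for p65 and 7.59 for TEAD about 2 kb downstream. The vehicle and control p65 folds there were 33.8 and 29.5, each relative to its own library. FOSL2 had 5.89 and 11.6 about 4 kb downstream. JUN had 6 TEAD peaks and no p65 peak.

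**Figure D5:**
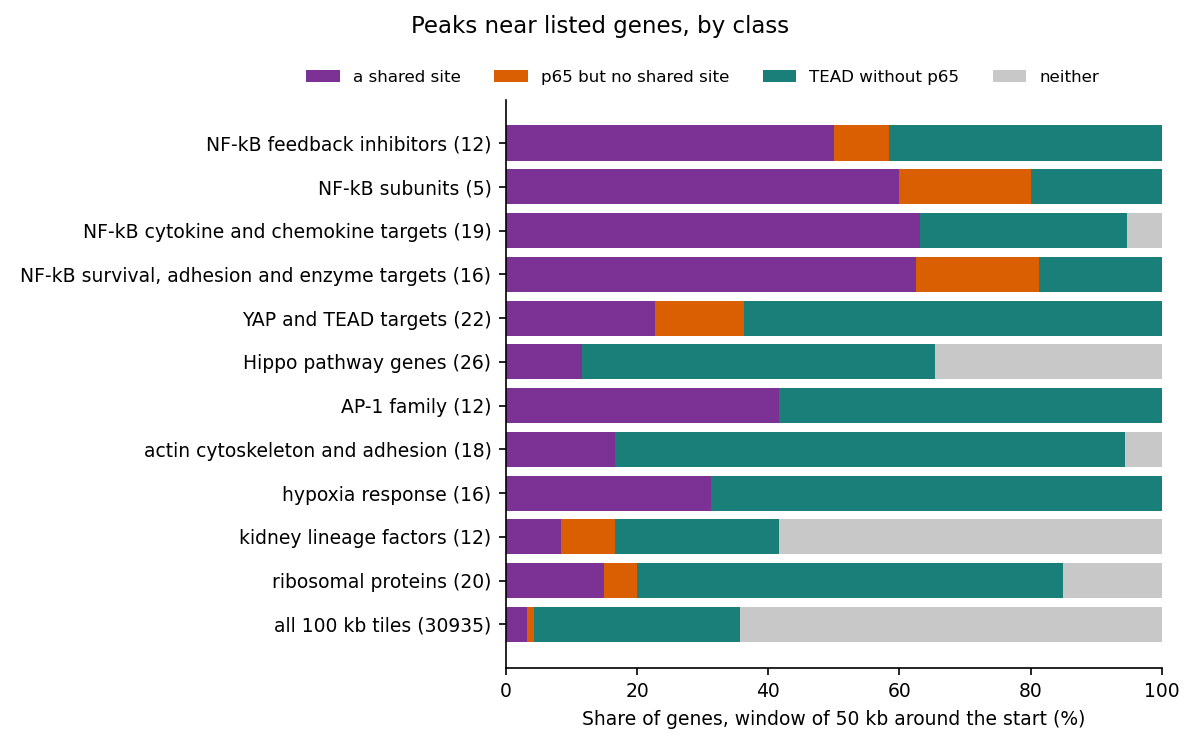
Genes of each list (number in brackets) by the peaks within 50 kb of their start: a shared site, p65 but no shared site, TEAD without p65, or neither (x axis, % of genes). The lowest bar gives the same over 30935 tiles of 100 kb, where 3.2% held a shared site and 31.5% TEAD without p65. A shared site was present at 12 of 19 cytokine genes and at 5 of 22 YAP and TEAD target genes.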

How the data were processed

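Each of 5 immunoprecipitates of 786-O cells has 1 peak list on hg19, beside 4 input libraries. Reads were processed with fastp, Bowtie2 2.4.5 and MACS2, per the submitters' processing notes; the MACS2 version and settings and the pairing with inputs were not given in the sources used here. The deposited columns hold, per peak, a fold (a ratio over local background), −log10 p and q values and positions in bp. The lists give no read totals, so depth is unknown. Folds and q-values come from the authors and rank or filter peaks only within a list.

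Overlap was 1 bp, and summits were the peak start plus the deposited offset. Shares have 95% Wilson intervals, differences of shares Newcombe intervals and medians order-statistic intervals (Python 3.11.15, numpy 2.4.6, pandas 2.3.3, scipy 1.17.1), tested on simulated data. Quintiles are of the fold of the own list. The members and gene lists were chosen with earlier results of these data known.

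Named sites were the 10 shared sites with the smallest sum of ranks by both folds, the 10 strongest TEAD-only and p65-only sites, the 5 regions with most TEAD peaks and the 5 with most shared sites, and for each listed gene the strongest site of each class within 50 kb. No hg19 annotation was used: gene starts come from general knowledge of hg19, rounded to 1 kb. RefSeq GRCh38.p14 served for promoter letters and as a check of names: 174 of 174 symbols matched, 174 were on the same chromosome, and 153 of 153 neighbouring pairs were in the same order. Motifs at summits were not searched, because no hg19 sequence was used. One of the regions with most shared sites is not reported here.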

Additional observations from a re-analysis of the deposited data

How the results depend on the processing

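Recomputed under other settings, 23 of 51 values fell inside the 95% interval of the value given above and 28 outside it; the cause was not tested. Leaving out the 5S array, sharing by summits for lengths and clustering, and all gene windows other than 50 kb were chosen after seeing the data. With summits within 200 bp, 66.1% of p65 and 4.65% of TEAD peaks were shared. The p65 fold was then 5.97 at shared and 5.94 at p65-only sites, the reverse of the order by overlap, and shared TEAD peaks measured 536 bp. With vehicle summits within 200 bp, 92.7% of shared p65, 85.5% of shared TEAD and 27.6% of TEAD-only peaks had a vehicle peak. A −log10 q of at least 5 in both lists, which drops weak peaks, gave 68.6% of p65 peaks shared, lengths of 361.5 bp (shared p65), 325 bp (p65-only), 586 bp (shared TEAD) and 374 bp (TEAD-only), and 14.8% of shared and 6.12% of TEAD-only peaks in regions of 5 or more. At 10 the shares were 57.9% of p65 and 4.33% of TEAD peaks, the summit distance 47 bp and the lengths 427.5, 383, 608 and 447 bp in the same order. Joining at 5 kb placed 6.56% of shared and 2.38% of TEAD-only peaks in such regions, and at 25 kb 35.7% and 19.4%, by construction. Near starts of NF-κB genes of the 4 lists (50 kb) lay 4.44% of shared p65, 2.20% of p65-only, 4.54% of shared TEAD and 0.621% of TEAD-only peaks. The intervals of both p65 classes overlapped there (3.42 to 5.73 for shared, 1.16 to 4.13 for p65-only). Within 10 kb 2.26% of shared p65 (1.57 to 3.24), 1.71% of p65-only (0.83 to 3.49), 2.35% of shared TEAD and 0.216% of TEAD-only peaks did. Within 100 kb 1.06% of TEAD-only peaks did. Shared p65 peaks were longer than p65-only peaks, and shared TEAD peaks longer than TEAD-only peaks, wherever length was recomputed. With sharing by summits the intervals of the p65 lengths overlapped. Shared TEAD peaks clustered more than TEAD-only peaks wherever clustering was recomputed. Clustering of p65 peaks was not recomputed at other gaps. Motif windows at summits were not tried. No paired analysis was possible because no group has a second library.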

Other observations

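Further lists were read in the same way, beside the ribosomal protein genes, of which 17 of 20 had TEAD, 3 a shared site, 1 a p65-only site and 3 neither factor within 50 kb. Of 16 hypoxia response genes, all had TEAD within 50 kb, 5 a shared site and 1 a p65-only site. PGK1, the glycolytic phosphoglycerate kinase, had both factors at its start, with folds of 21.7 for p65 and 25.5 for TEAD. The p65 folds there were 18.2 in the vehicle, 9.64 in the control and 19.8 in the siTEAD4-labelled list. Both peaks began at the same base, 77359299 on chromosome X, and no other peak of either list lay within 100 kb of the start. Whether these reads come from the gene's own locus was not tested. BHLHE40, a transcriptional repressor induced by hypoxia, had 4 shared sites, and TEAD 16.5 and p65 5.99 at its start. BNIP3 had TEAD alone at its start, with a fold of 19.1.

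Of 18 genes of the actin cytoskeleton and adhesion, 17 had TEAD and 3 a shared site, close to the counts of that reference. ITGB1, the β1 integrin, had a shared site about 25 kb upstream with a p65 fold of 3.30, while TEAD reached 31.0 in the window. CAV1, the gene of caveolin-1, had TEAD alone at its start, 12.1, among 7 TEAD peaks.

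Of 12 kidney lineage factors, 7 had neither factor within 50 kb, WT1, SIX2 and HNF4A among them. PAX8, a renal transcription factor, had 3 shared p65 peaks and 5 TEAD peaks. The one with the highest p65 fold, about 37 kb downstream of the start, had folds of 11.3 for p65 and 10.1 for TEAD. The highest TEAD fold at a shared site was 19.2, about 6 kb upstream.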
